A study of Mus musculus with 4 samples.

Results

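Loss of miR-125a was examined in bone marrow neutrophils exposed to lipopolysaccharide (LPS) for 3 h, by setting the array of the LPS-treated miR-125a-/- cells against that of the LPS-treated miR-125a+/+ cells. These are 2 of the 4 Affymetrix arrays of the series; the others hold cells of the same genotypes labelled 0 h, without LPS. All groups are neutrophils of C57BL/6 mice aged 8 weeks, enriched from marrow with a magnetic bead kit and kept in RPMI 1640 medium with serum, and by their labels the groups differ in genotype and in LPS. The sources used here do not say how the knockout was made or whether the cells labelled 0 h also spent 3 h in culture. Each group is 1 array, hybridised with a pool of RNA from 3 experiments, so no value has a replicate error, and no test was run. Every difference below is the log2 signal of knockout minus wild type and describes these pools.

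MicroRNAs are short RNAs that pair with messenger RNAs, mainly through bases 2 to 8 of the microRNA (the seed), and lower their stability or translation. miR-125a belongs to a family with miR-125b, and reported targets of the family include regulators of nuclear factor kappa B (NF-kB), the transcription factor that Toll-like receptor 4 activates when it recognises LPS, the outer membrane glycolipid of Gram-negative bacteria. Neutrophils, short-lived phagocytes released from the marrow in large numbers, answer LPS by making chemokines and cytokines, among them the CXC chemokines that draw in further neutrophils.

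The mature sequences (RefSeq, GRCm38.p6) show what Mir125a encodes and what a family member may share with it, with the seed in capitals. Which of its strands the knockout lacks was not checked here. The 5p strands of miR-125a and miR-125b have the same seed, CCCUGAG, and differ towards the 3′ end. The 3p strand of miR-125a has the seed CAGGUGA. miR-125a lies at chr17:17830817-17830840 (5p) and chr17:17830855-17830876 (3p), both on the plus strand; miR-125b-5p is made from the copies at chr9:41581940-41581961 and chr16:77646279-77646300, also on the plus strand.
miR-125a-5p: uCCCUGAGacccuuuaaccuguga
miR-125b-5p: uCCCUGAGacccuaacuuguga
miR-125a-3p: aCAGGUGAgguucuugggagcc

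The arrays measure polyadenylated RNA through probe sets at the 3′ end of transcripts, so miR-125a itself was not measured. Spaca6, the gene that hosts it, has 3 probe sets, whose highest log2 signal on any array was 6.24; this is under the floor of 6.80 (signal 111) that marks the lowest 60% of all values, and the arrays therefore give no check of the genotype labels. Above the floor lay 17043 of 45101 probe sets (37.8%) on the wild-type LPS array and 17758 (39.4%) on the knockout LPS array, and the signals of the LPS arrays had a Pearson correlation of 0.991 across all probe sets. The 3′ to 5′ difference of the Actb control probe sets, a sign of RNA quality, ranged from 0.16 to 0.23 over the 4 arrays. The 9 measured neutrophil markers, among them Ngp, S100a8, S100a9 and Csf3r, had differences between -0.32 and 0.38, and their summed signal was 283619 on the wild-type LPS array and 323746 on the knockout LPS array.

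LPS-treated neutrophils of the knockout differed little from wild type in most genes. Of 9262 genes measured (above the floor on at least 1 LPS array), 8554 (92.4%) lay within 1.5-fold, the median difference was -0.01 and the median absolute difference 0.19. A difference of at least 2-fold was taken as a call, and 115 genes (1.24%) met it: 57 (0.615%) were higher and 58 (0.626%) lower in the knockout. In 12 of the higher and 13 of the lower genes 1 array was at the floor, and the difference given for these is the smallest it can be ("at least"). By the brightest probe set of each gene none was 4-fold higher, and 3 were at least 4-fold lower; further probe sets of Rps9 and Xaf1 that passed 4-fold are given with the highest genes. The split between higher and lower (49.6% higher) moved to 38.2% higher under quantile normalization, with 47 higher and 76 lower. Just inside the 2-fold line stood Rbm19 (1.0013) and Mlst8 (-1.01), and just outside it Tcf4 (0.99) and Wdfy1 (-0.997).

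The calls lay mostly among dim genes. When genes were ranked by mean signal on the LPS arrays and cut into 5 bins of equal size, 2.16% of the dimmest bin and 2.11% of the next were called, against 1.03%, 0.756% and 0.162% of the brighter ones. The median absolute difference narrowed in the same order from 0.26 to 0.13. Of the 115 called genes, 39 had a further measured probe set: in 26 of these all further sets had the sign of the call, in 7 a further set also reached 2-fold, in 13 a further set had the opposite sign, and in none did one reach 2-fold in the opposite direction. Values under the floor were set to it here too, so some of these further differences are lower bounds. The other 76 genes rest on 1 measured probe set each.

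Probe sets without a single gene name were kept apart. Of 1758 measured sets that the annotation does not list under a gene, 67 (3.81%) were higher after LPS and 11 (0.626%) lower, beside 0.772% and 0.488% of the 16193 sets with 1 gene symbol; at 0 h, 1.4% of the unlisted sets were higher. The highest unlisted set, noticed after its value was seen, passed 4-fold, with 7.87 in wild-type and 10.24 in knockout LPS cells (2.37). At 0 h that set was at least 3.05 higher in the knockout (6.28, below the floor, and 9.84). Of 527 sets with several symbols, 1 (0.19%) was higher and 6 (1.14%) lower.

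**Figure D1:**
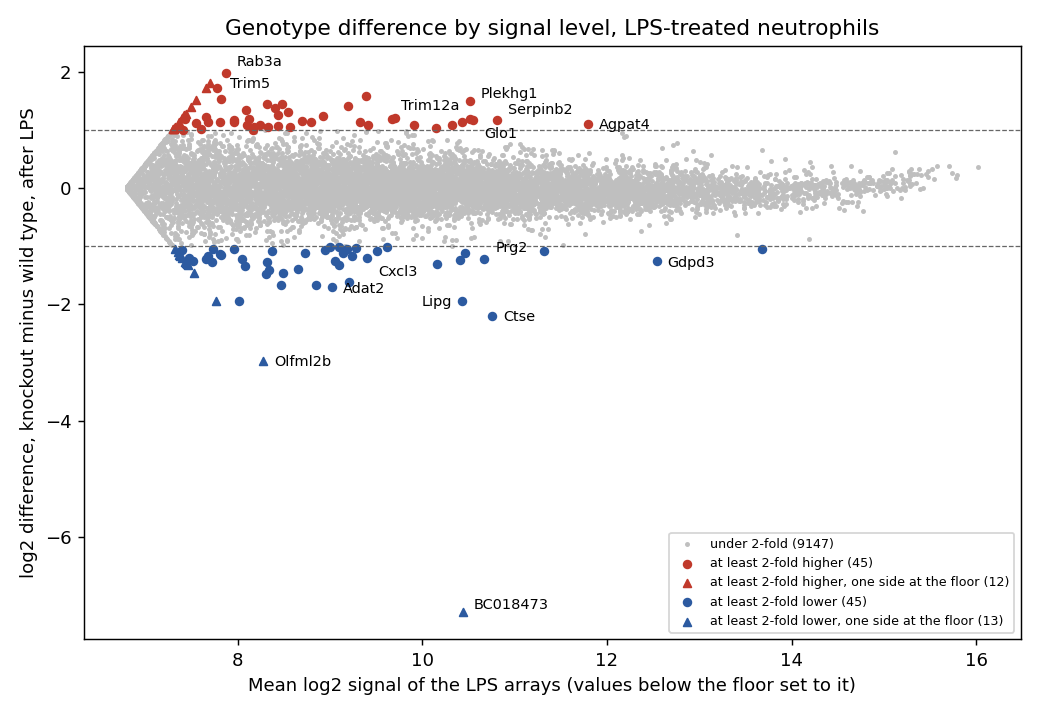
Each point is 1 of the 9262 measured genes: the x axis is the mean log2 signal of the LPS arrays, the y axis the log2 difference of knockout minus wild type after LPS, dashed lines mark 2-fold, and triangles are genes with 1 array at the floor. Most genes lie close to 0 at every signal level, the 57 higher and 58 lower genes thin out towards high signal, and BC018473 at -7.29 stands far below the rest.

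Most genes of the inflammatory programme that LPS switches on in neutrophils lay within 2-fold between genotypes. Of 693 measured genes that were at least 2-fold higher with LPS than at 0 h in wild-type cells, 5 were called higher and 15 lower in the knockout (2.89%, beside 1.24% of all); the wild-type LPS array enters both measures. In 14 immune lists 181 genes were measured and 7 were called (3.87%), 5 higher and 2 lower, with a median of 0.00; all 7 belong to the neutrophil-attracting chemokines, the Ifi200 family and the Trim genes, described further on. In the other 11 lists, holding cytokines, CC and interferon-inducible chemokines, NF-kB and Toll-like receptor components, interferon-stimulated genes, Gbp and Irg GTPases, interferon regulatory factors, JAK-STAT genes, immediate-early factors, and MAP kinase phosphatases with RNA-decay factors, 0 of 159 measured genes were called. Their differences ran from -0.65 to 0.90 with a median of -0.01, and 153 lay within 1.5-fold. In wild-type cells 68 of the 159 were at least 2-fold higher with LPS than at 0 h. These 11 lists are those without a call, so the 0 is a description of them. At the share over all genes, 1.24%, few calls would be found in lists of this size. The lists do not hold every such gene: Gbp2b (-1.46) and the interferon-induced Ifi44l (at least 1.45 downwards) are outside them and were called lower.

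Single genes of the programme show how close the LPS arrays were. Tnf, the early inflammatory cytokine, had log2 signals of 13.76 in wild-type and 13.54 in knockout LPS cells, from 10.82 and 10.68 at 0 h. Il1b, which becomes interleukin-1 beta once cleaved, reached 15.07 and 15.29. Il6, a fever-inducing cytokine, reached 12.40 and 12.87, from 6.92 in wild-type cells and a value below the floor in the knockout. Il18 had the largest difference of the cytokines at 0.56, and Il1a stood at -0.48. Cxcl10, a chemokine for activated T cells, reached 13.81 and 13.85. Ccl3, a chemokine for monocytes and lymphocytes, reached 15.27 and 15.34. Each of these genes was higher on both LPS arrays than on either array without LPS.

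Cxcl3 was the exception among the chemokines. This neutrophil attractant, a ligand of Cxcr2, had log2 signals of 7.52 in wild-type and 7.07 in knockout cells at 0 h, and 10.01 and 8.80 after LPS. It was thus higher after LPS in both genotypes, and 2.30-fold lower in the knockout than in wild type after LPS (difference -1.20; -0.45 at 0 h). It has no further measured probe set, and its call was kept under all 10 alternative settings that left the 2-fold line in place. Of the other listed neutrophil-attracting chemokines only Cxcl1 and Cxcl2 were measured. Cxcl2 stood at 14.90 and 14.87 after LPS. For Cxcl1 the values were 8.37 and 9.24, a difference of 0.87, with 0.09 and 0.98 from its further probe sets. At 0 h, Cxcl1 had been called lower in the knockout by its brightest probe set (8.11 and 6.97, difference -1.14). Its further sets did not show this at 0 h: 1 gave at least 0.08 (6.58, below the floor, and 6.87), and the other was below the floor in both genotypes. Cxcr2 itself, the receptor on the neutrophil, had a difference of -0.32.

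**Figure D2:**
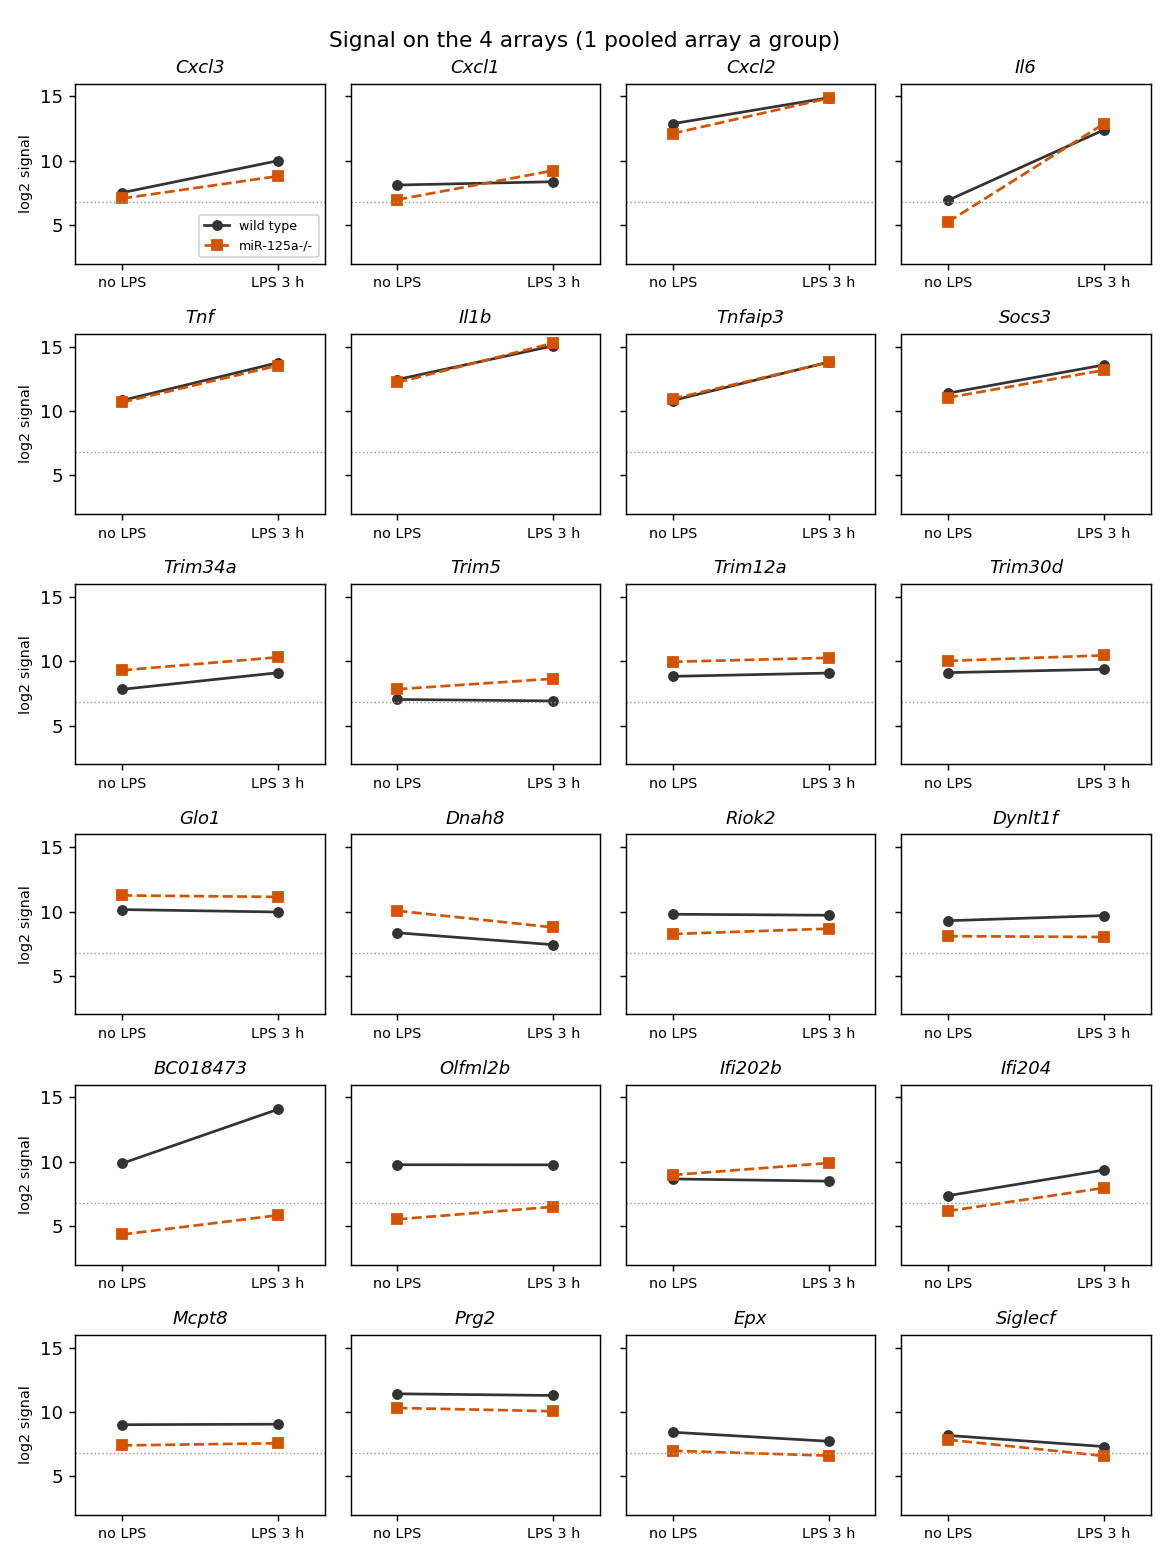
Each panel plots 1 gene's log2 signal without LPS and after 3 h of LPS, in wild-type (circles, solid line) and miR-125a-/- cells (squares, dashed line), with 1 pooled array per point and the floor as a dotted line. The lines of Tnf, Il1b and Tnfaip3 nearly coincide, those of Cxcl3 part after LPS, and those of Trim34a, Trim12a, Glo1, Olfml2b and Prg2 are apart at both times.

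Regulators of the response were as close as its products. Tnfaip3, the ubiquitin-editing inhibitor of NF-kB and a reported target of miR-125, had 13.80 in wild-type and 13.79 in knockout LPS cells. Among the 23 measured NF-kB genes, the largest difference was that of Bcl3, a nuclear IkB protein, at -0.38, followed by Otud7b (-0.36) and Nfkbiz (-0.34). Of 19 Toll-like receptor components, Irak1, a kinase of the receptor complex, stood at -0.53 in its brightest probe set and at 0.25, -0.04 and 0.08 in its further ones, and Tlr4, the LPS receptor, at 0.34. Socs1, a feedback inhibitor of JAK kinases, was the highest of 17 JAK-STAT genes (8.19 and 8.90, difference 0.71), and Socs3 stood at -0.41. Zfp36, which speeds the decay of cytokine mRNAs, had -0.48. All of these lay below 2-fold.

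Reported targets of the miR-125 family were spread around 0. Of 45 genes listed, 34 were measured and 0 were called, a count near the background, since 1.24% of all genes were called. Their differences ran from -0.60 to 0.41, 13 above 0 and 21 below it, with a median of -0.10 beside -0.01 over all measured genes. Highest was Tet2, a DNA demethylating enzyme and regulator of myeloid cells, at 0.41, with 0.91 in its further probe set (9.32 in wild-type and 10.23 in knockout LPS cells). Lowest was Bmf, a BH3-only death protein, at -0.60, with 0.03 and at least 0.04 in its further sets. Abtb1 (-0.52), Erbb3 (-0.51), Map3k11 (-0.48) and Socs3 (-0.41) followed. A further set of Lin28a, also listed and noticed after its value was seen, had 8.74 in wild-type and 7.74 in knockout LPS cells (-0.998). At 0 h that set was at least 1.15 lower in the knockout. The arrays report RNA levels, so an effect on protein alone would not appear in these values.

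Genes of neutrophil function held no call, again near the background share of 1.24%. Of the lists for primary granule proteins (7 measured), secondary and tertiary granule proteins (13), NADPH oxidase subunits (7), Fc and lectin receptors (17), adhesion and chemoattractant receptors (20), prostaglandin and leukotriene enzymes (11) and granulocyte transcription factors (14), 0 of 87 measured genes were called. Mpo, the peroxidase of primary granules, stood at -0.26, Elane, neutrophil elastase, at 0.19, and Cybb, the catalytic subunit of the oxidase, at 0.22. Ptgs2 and Ptges, enzymes of prostaglandin E2 synthesis, stood at 0.48 and -0.55. Naip5, a sensor of bacterial flagellin, had the highest value of the inflammasome genes (0.80). Il18r1, a chain of the interleukin-18 receptor, had the lowest of the cytokine receptors (7.80 and 6.93, difference -0.87).

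Across all 46 lists, 490 listed genes were measured, 5 were called higher and 4 lower (1.84%, beside 1.24% of all measured genes), and 42 lists held no call. Of 342 further measured probe sets of uncalled listed genes, 4 reached 2-fold: those of Rps9 (4.83) and Il10ra (at least 1.28) were higher, and those of H2-Aa (-1.18) and Srxn1 (at least 1.04 downwards) lower. The calls fell in the neutrophil-attracting chemokines, the interferon-activable Ifi200 family, the Trim ubiquitin ligases and the markers of eosinophils, basophils and mast cells.

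**Figure D3:**
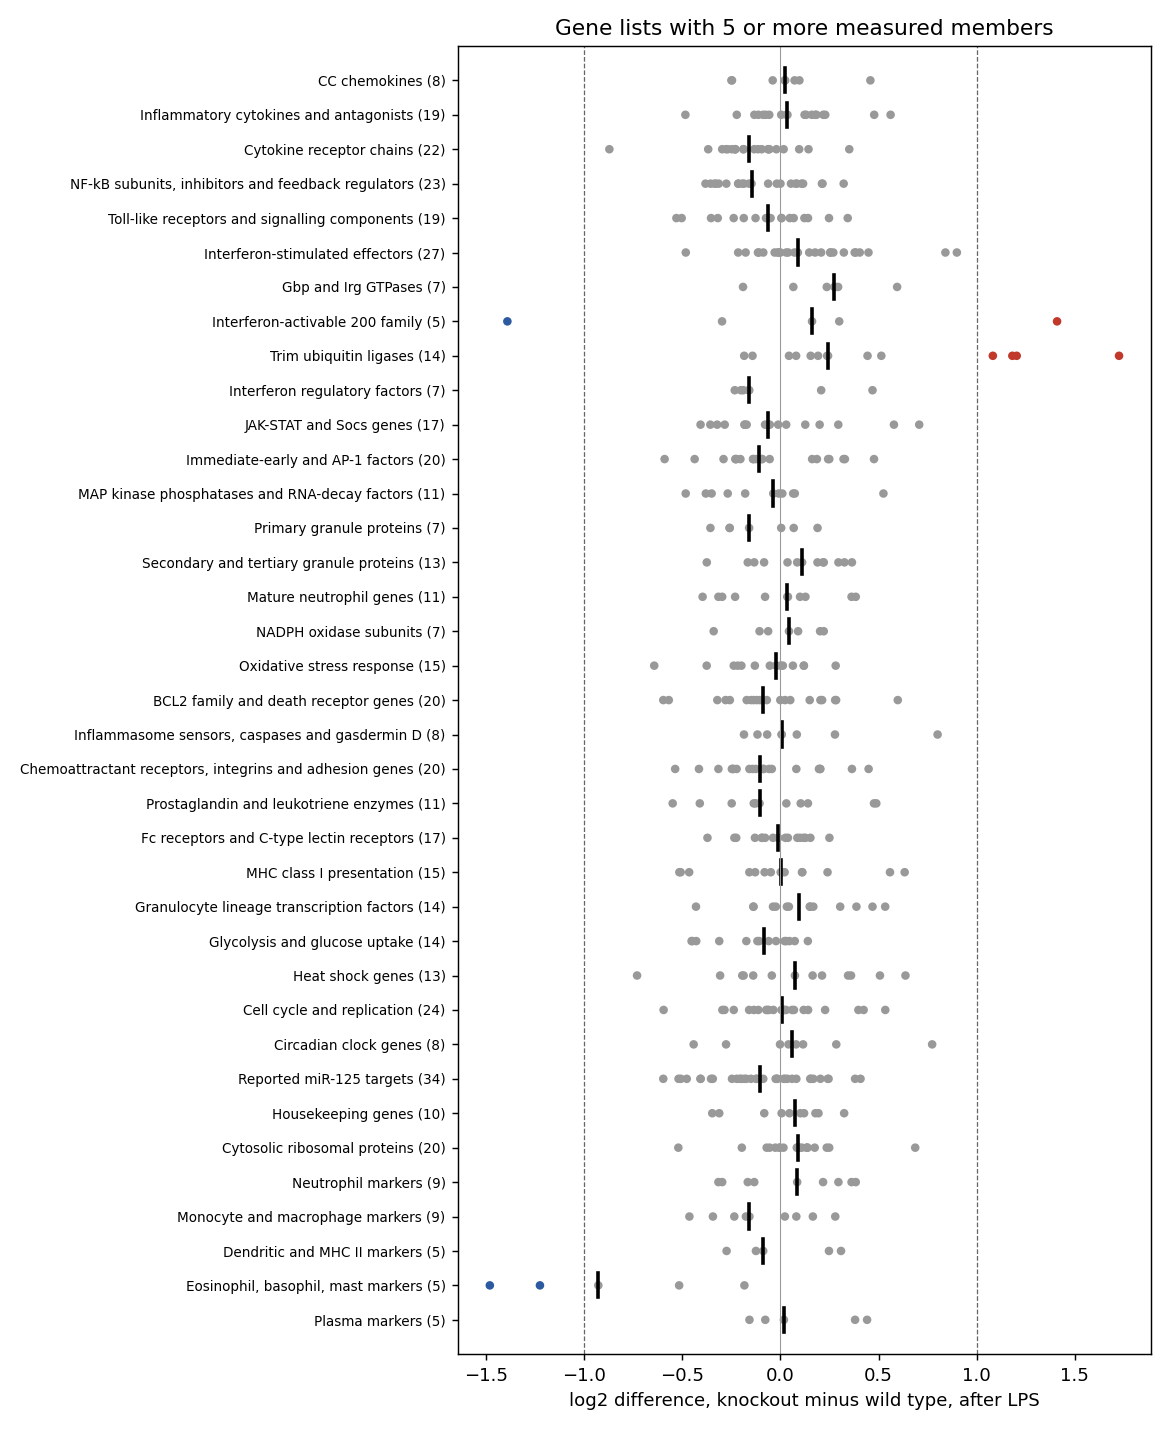
Each row is a list with at least 5 measured members (their number in brackets), each point a gene at its log2 difference of knockout minus wild type after LPS, black bars are list medians, and dashed lines mark 2-fold. Most lists straddle 0 within the dashed lines; the calls are the 4 Trim genes on the right, Ifi202b and Ifi204 on opposite sides, and Mcpt8 and Prg2 on the left.

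Tripartite motif (Trim) genes that lie side by side on chromosome 7 were higher in the knockout. The Trim family encodes ubiquitin ligases, many of them induced by interferon and some of them restricting viruses. Of 14 measured Trim genes 4 were called, all higher, beside 0.615% of all measured genes: Trim34a, Trim5, Trim12a and Trim30d. In the gene order of GRCm38.p6 these 4 are neighbours, interrupted among measured genes by Trim12c and Trim30a alone.

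Trim34a had log2 signals of 7.82 in wild-type and 9.30 in knockout cells at 0 h, and 9.11 and 10.31 after LPS, a difference of 1.20 after LPS. For Trim12a the values were 8.83, 9.96, 9.08 and 10.27 in the same order, a difference of 1.18. Trim30d had 9.12, 10.03, 9.37 and 10.46, a difference of 1.08. In the brightest probe sets of these 3 genes both knockout arrays lay above both wild-type arrays.

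Trim5, the namesake of a family of capsid-binding restriction factors, had 7.03, 7.83, 6.91 and 8.64, a difference of 1.73. It was dim, close to the floor on both wild-type arrays, and its difference shrank to 0.10 with a floor at the 75th percentile. Trim12c, between the called genes, had 11.16 and 11.20 after LPS, and Trim30a, which curbs Toll-like receptor signalling, 11.11 and 11.56. Trim21, the next measured gene before Trim34a, had a difference of 0.51. It lies farther off, with its promoter at chr7:102565433-102565732 and that of Trim34a at chr7:104244207-104244506. The cluster thus held members with 2-fold differences beside a member with nearly equal signals.

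Further probe sets of these genes gave 0.30 for Trim34a, at least 0.18 for Trim12a and at least 0.25 for Trim30d after LPS. At 0 h the further set of Trim34a went the other way, with 8.08 in wild-type and 7.43 in knockout cells (-0.65). The sets of Trim12a and Trim30d had wild-type LPS values below the floor (5.84 and 6.73, against 6.97 and 7.04 in the knockout). Averaged over probe sets, Trim34a stood at 0.75 and Trim30d at 0.70, below the 2-fold line, while Trim12a kept its call. These genes are near copies of each other, and how far their probes share targets was not tested. The 10 measured genes before Trim21 and the 9 after Trim30d in the plot of this region had no 2-fold difference after LPS. The median of all 14 measured Trim genes, 0.24, stayed above 0 under each of 3 other scalings.

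**Figure D4:**
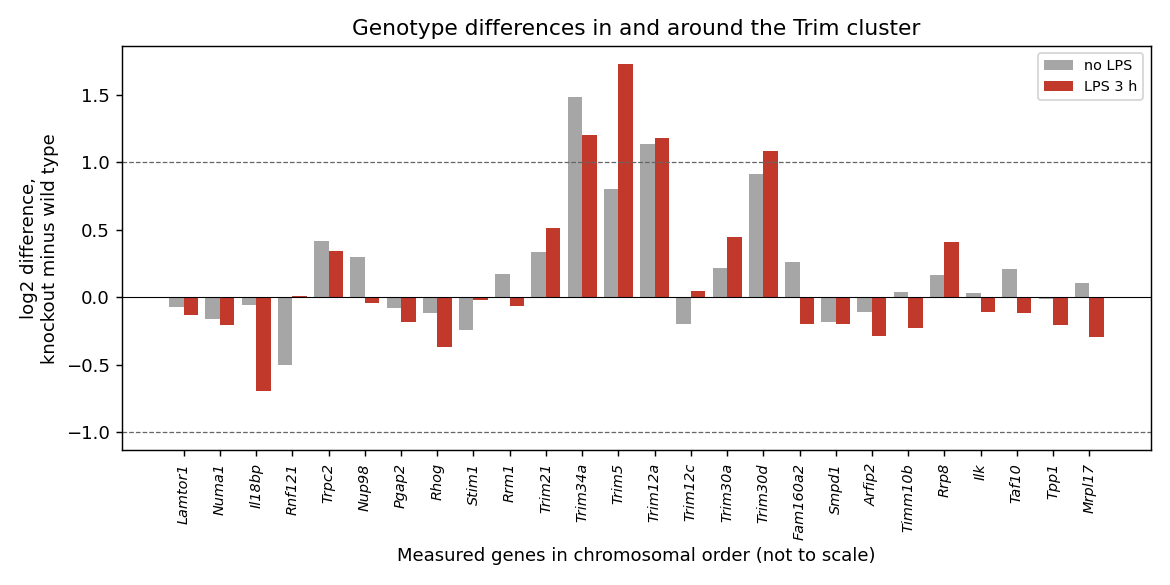
Bars are log2 differences of knockout minus wild type without LPS (grey) and after LPS (red) for the measured genes from Lamtor1 to Mrpl17 on chromosome 7, in chromosomal order and not to scale; dashed lines mark 2-fold. Trim34a, Trim5, Trim12a and Trim30d stand above 1 after LPS, Trim12c stands near 0 between them, and the flanking genes lie between the dashed lines.

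Interferon-responsive genes are switched on through a promoter element read by interferon regulatory and STAT factors, and since these Trim genes were high together, their promoters were searched for its core. The letters sought were GAAA and GAAA with any 2 bases between them (TTTC and TTTC on the other strand), on both strands, in 300 bases per promoter (250 before and 50 after the transcript start, RefSeq, GRCm38.p6). All 7 measured Trim genes of this region hold a match, the uncalled Trim12c and Trim30a and the more distant Trim21 included, against 3.44% of 32851 promoters. Trim34b, which lies between Trim12a and Trim12c and is not among the measured genes, holds none. Some of these promoters share a run of bases, given below, so their matches are not independent. The windows below run from 60 bases before to 30 after the start, on the gene's own strand, for the 4 called genes and for Trim12c, which was not called; capitals mark the match. Trim34a lies at chr7:104244397-104244486 on the plus strand. On the minus strand are Trim5 at chr7:104288077-104288166, Trim12a at chr7:104315466-104315555, Trim12c at chr7:104353320-104353409 and Trim30d at chr7:104507820-104507909.
Trim34a: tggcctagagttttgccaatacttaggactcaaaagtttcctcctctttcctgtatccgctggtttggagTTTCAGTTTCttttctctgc
Trim5: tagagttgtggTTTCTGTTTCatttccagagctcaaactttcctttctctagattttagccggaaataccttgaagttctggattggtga
Trim12a: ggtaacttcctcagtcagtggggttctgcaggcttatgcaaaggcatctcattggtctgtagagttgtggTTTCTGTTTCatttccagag
Trim12c: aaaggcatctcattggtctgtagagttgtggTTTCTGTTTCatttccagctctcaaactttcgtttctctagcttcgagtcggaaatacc
Trim30d: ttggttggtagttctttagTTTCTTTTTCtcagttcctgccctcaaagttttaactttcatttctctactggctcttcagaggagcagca

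Trim5, Trim12a and Trim12c share an unbroken run of 63 bases that holds the match, 29 of them within all 3 printed windows. The match lies before the annotated start in Trim5 and Trim12c and after it in Trim12a. Any part of the element in these differences was not tested. Among all called genes with a promoter in the table, 6 of 45 higher genes held the element (Slfn5 and Tcl1b3 beside the 4 Trim genes) and 2 of 47 lower genes (Dhrs3 and Gbp2b), against 3.91% of the measured genes. Both other motifs searched were an NF-kB element (GGGA and TTCC with any 2 bases between; 1.47% of all promoters and 1.86% of measured genes, 3 of 45 higher and 3 of 47 lower genes) and an ETS-IRF composite (GGAA and GAAA with any 2 bases between; 2.72% and 2.99%, 3 of 45 and 0 of 47), each on both strands; the composite can overlap the interferon element. A match is a description of the letters in this window only.

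Other interferon-inducible genes went both ways or stayed close. Of 27 measured interferon-stimulated effectors 0 were called, with Samd9l (11.76 and 12.66, difference 0.90) and Herc6 (0.84) highest; Rsad2, an antiviral enzyme strongly induced here, reached 12.78 and 13.23. In the interferon-activable Ifi200 family, some of whose members sense DNA, Ifi202b was higher and Ifi204 lower. Ifi202b had log2 signals of 8.66 and 8.97 at 0 h and 8.49 and 9.90 after LPS, a difference of 1.41. Ifi204 had 7.36 and a value below the floor at 0 h and 9.36 and 7.96 after LPS, a difference of -1.39, which shrank to -0.81 with the floor at the 75th percentile. Of their relatives, Mndal stood at 0.30 and Aim2 was at least 0.30 lower. Ifi203 was at least 0.16 higher (5.25, below the floor, in wild-type and 6.96 in knockout LPS cells).

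Probe sets that match several genes of the Ifi200 family were kept out of gene counts. The set shared by Ifi211 and Ifi205 had a difference of -1.17, and a second set assigned to Ifi202b and 1 other locus 1.12. A set of Ifi203 and its pseudogene was at least 1.09 lower. A brighter set that also matches them gave -0.35 (9.27 in wild-type and 8.92 in knockout LPS cells). The set shared by Mndal, Ifi211, Ifi205 and Ifi204 gave -0.93. The members of this family are near copies too, so single differences may mix neighbours.

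Gbp2b, a guanylate-binding GTPase outside the lists, was 2.75-fold lower after LPS (8.22 and 6.71 at 0 h, 9.22 and 7.76 after LPS). The 7 measured Gbp and Irg relatives on the list were uncalled, with Gbp7 at 0.59 and Gbp2 at 0.24. Ifi44l, an interferon-induced gene, was at least 2.74-fold lower, at 8.25 in wild-type LPS cells and below the floor on both knockout arrays.

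The lowest gene of all was BC018473, annotated as a non-coding RNA. Its log2 signals were 9.88 in wild-type and 4.34 in knockout cells at 0 h, and 14.08 and 5.84 after LPS. It was thus among the bright transcripts of wild-type LPS cells and below the floor in both knockout pools, at least 156-fold lower after LPS and at least 8.45-fold lower at 0 h. Olfml2b, an olfactomedin-domain matrix protein, followed the same pattern without an LPS response: 9.77 and 5.53 at 0 h, 9.76 and 6.50 after LPS, at least 7.80-fold lower. Each of these genes rests on 1 measured probe set.

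Ctse, the aspartic protease cathepsin E, had 11.85 and 10.98 at 0 h and 11.86 and 9.66 after LPS, 4.59-fold lower; its further probe set, dimmer, gave 0.10. Lipg, endothelial lipase, had 12.68 and 10.51 at 0 h and 11.40 and 9.46 after LPS, 3.83-fold lower. Its further sets gave -2.34 and at least 0.30 downwards (7.09 and 5.62, the knockout value below the floor). Adat2, the catalytic subunit of a tRNA adenosine deaminase, was 3.26-fold lower (9.87 and 8.17 after LPS) and had a similar difference at 0 h (-1.63). For Lipg and Adat2 both knockout arrays lay below both wild-type arrays.

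Dynlt1f, a dynein light chain, was 3.18-fold lower and Dsp, the desmosome protein desmoplakin, 3.17-fold lower, with -0.88 in the further probe set of Dsp. The probe set of Dynlt1f is of a type that may cross-hybridise. Arhgap31 had 10.02 and 8.40 after LPS, a difference of -1.62, and its dimmer further set gave at least 0.21 downwards. Rps27, a ribosomal protein, had 9.04 and 7.64, while the 20 ribosomal protein genes of the list held no call by their brightest probe sets. Slc41a3, of a magnesium transporter family, stood at -1.33 in its brightest probe set and at 0.02 in the further one. Nwd1, a NACHT and WD repeat protein, had 9.76 and 8.44.

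Among genes below the floor in the knockout after LPS, St6galnac1, a sialyltransferase, was at least 3.83-fold lower. Sytl1, an effector of vesicle-bound Rab proteins, was at least 2.51-fold lower, at 8.12 in wild type and 4.85 in the knockout. Pik3r2, a regulatory subunit of phosphoinositide 3-kinase, was at least 2.47-fold lower.

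By brightest probe sets, no gene at the high end stood as far out as BC018473, Olfml2b or Ctse at the low end. Rab3a, a GTPase of secretory vesicles, led with 6.89 in wild-type and 8.86 in knockout LPS cells, 3.94-fold higher. Its further probe set gave at least 0.04 (5.13, below the floor, and 6.84). Without probe sets of the cross-hybridising types the call of Rab3a was lost. Zfp593, a zinc finger protein, had 8.73 and 9.88 at 0 h and 8.60 and 10.18 after LPS (1.57), also in a probe set of that type; its further set was below the floor, and without such sets the call was lost. Plekhg1 had 8.19 and 9.27 at 0 h and 9.77 and 11.26 after LPS. Plekhg1 was 2.81-fold higher after LPS, its further set gave at least 0.95, and its call was kept under all 10 alternative settings named for Cxcl3.

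Lactb2, a mitochondrial ribonuclease, stood at 1.45, with at least 0.04 in a further set (5.77, below the floor, and 6.84). The remaining genes of the top 12 were Zfp429 (1.38), Dnah8 (1.35), Ttyh3, a chloride channel family member (2.47-fold), and Ttc14 (1.26), beside Trim5, Ifi202b and a pair of immunoglobulin kappa segments. In their brightest probe sets Ttc14 and Ttyh3 had nearly equal signals in the genotypes at 0 h (10.55 on both arrays for Ttc14, and 10.00 and 9.74 for Ttyh3). After LPS the wild-type array was the lowest of the 4 for both, at 7.80 and 7.90, against 9.07 and 9.20 in the knockout. Further sets of Ttc14 gave 0.86, 0.61, 0.14 and at least 0.09 after LPS. The set at 0.14 had 9.17 in wild-type and 8.05 in knockout cells at 0 h (-1.13). The call of Ttc14 was lost without probe sets of the cross-hybridising types (0.86), in the mean over probe sets (0.00) and with a floor at the 75th percentile (0.52).

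Below the floor in wild-type LPS cells and above it in the knockout were Zdhhc14, a palmitoyltransferase (at least 3.50-fold higher), Fam71b (at least 3.28-fold), Nrxn3, a neuronal adhesion protein (at least 2.85-fold), Ptpru, a receptor tyrosine phosphatase (at least 2.63-fold), and Tpm1, the actin-binding protein tropomyosin (at least 2.43-fold). Further probe sets that passed 4-fold while the brightest set of the gene did not were noticed after their values were seen. A probe set of Rps9, a ribosomal protein, had 9.45 in wild-type and 14.09 in knockout cells at 0 h and 9.80 and 14.63 after LPS, a difference of 4.83. It is of the type that may cross-hybridise, and the other measured sets of Rps9 gave 0.02 (14.94 and 14.96) and 0.05. A probe set of Xaf1, an interferon-induced gene, was below the floor in wild-type cells at both times and had 8.48 and 9.51 in the knockout, a difference of at least 2.71 after LPS; the brightest set of Xaf1 gave -0.46 (11.08 and 10.62). For both genes the probe sets disagree, and the 4-fold difference stands in 1 set each.

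The call of Zdhhc14 was lost without probe sets of the cross-hybridising types.

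A few called genes that are bright or bear on inflammation are added here, chosen after their values were seen. Serpinb2, an inhibitor of plasminogen activation made by activated myeloid cells, had 7.71 and 7.49 at 0 h and 10.22 and 11.39 after LPS, 2.26-fold higher. Agpat4, an acyltransferase of phospholipid synthesis, had 11.25 and 12.35 after LPS, with 1.69 in its further probe set. Kcnn4, a calcium-activated potassium channel, stood at 1.13, with at least 1.34 in its further set. Cap1, a regulator of actin turnover and the brightest called gene, had 14.21 and 13.16, a difference of -1.04, with -0.73 in its further set.

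The signals over all 4 arrays show on which array the calls arose. Among the 57 higher genes the wild-type LPS array was the lowest of the 4 in 43 and the knockout LPS array the highest in 30. In wild-type cells 21 of the 57 were at least 2-fold lower after LPS than at 0 h, and 5 were 2-fold higher. Among the 58 lower genes the wild-type LPS array was the highest in 42 and the knockout LPS array the lowest in 33. In wild-type cells 15 of the 58 were at least 2-fold higher after LPS and 1 was lower. The members of each direction were chosen on the LPS arrays, so these positions are a description.

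The comparison at 0 h uses other arrays and so shares no measured value with the comparison after LPS. Both come from mice of the same lines. The labels do not say whether the pools also share mice or marrow preparations, so genes alike at both times are not a replication. At 0 h, 95 of 9401 measured genes (1.01%) were called, 33 (0.351%) higher and 62 (0.660%) lower. Calls of equal direction with and without LPS were made for 29 genes. Of these 10 were higher, which is 17.5% of the genes higher after LPS and 30.3% of those higher at 0 h, and 19 were lower, 32.8% and 30.6%. By sign alone, 41 of the 57 higher genes were also higher at 0 h and 13 lower, and 45 of the 58 lower genes were also lower and 10 higher; the other 6 were at the floor on both arrays. The median difference at 0 h was 0.31 for the higher and -0.70 for the lower genes. Over the 8798 genes measured at both times, the correlation of the differences was 0.281 (Pearson) or 0.204 (Spearman), taken across genes, which are not independent replicates.

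**Figure D5:**
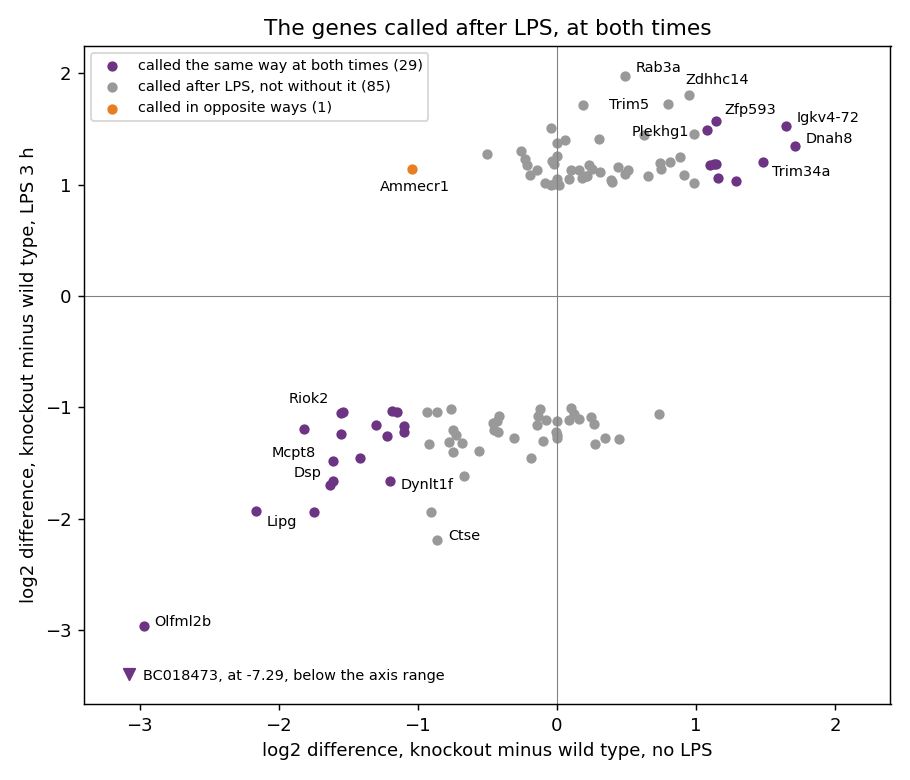
Each point is 1 of the 115 genes called after LPS, with the log2 difference of knockout minus wild type without LPS on the x axis and after LPS on the y axis. Purple points, called the same way at both times, number 29, grey points were called after LPS and not without it, Ammecr1 is called in opposite ways, and BC018473 is drawn at the lower edge because its value of -7.29 lies below the axis range.

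The genes called at both times, by their brightest probe sets, included several named elsewhere in the text. These were BC018473, Olfml2b, Lipg, Adat2, Dsp, Dynlt1f, Gbp2b and Mcpt8 on the low side and Trim34a, Trim12a, Plekhg1 and Zfp593 on the high side. Gdpd3, a lysophospholipase D and a bright gene, had 12.31 and 11.08 at 0 h and 13.17 and 11.91 after LPS. Its LPS difference was -1.26. Col5a1, a collagen chain, had 10.85, 9.30, 11.03 and 9.79, with a further probe set at -1.06. In both, the gap between genotypes was about as wide with LPS as without.

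Glo1, glyoxalase I, which clears methylglyoxal, had 10.15 and 11.25 at 0 h and 9.96 and 11.14 after LPS, 2.26-fold higher. Its 2 further probe sets gave 1.17 and 1.31, so all 3 measured sets of Glo1 reached 2-fold after LPS; a further set below the floor brought the mean over probe sets to 0.86. Dnah8, an axonemal dynein chain and a near neighbour of Glo1, had 8.34 and 10.06 at 0 h and 7.42 and 8.76 after LPS. Acvrl1, a receptor of the bone morphogenetic protein family, stood at 1.04, with 0.58 in its further set. Slc9a3r2, a scaffold protein, stood at 1.06, with 1.24, at least 0.12 and at least 0.08 in its further sets. The call of Slc9a3r2 was lost under quantile normalization (0.94) and in the mean over probe sets (0.11). Ppp5c, a serine/threonine phosphatase, stood at 1.19, but at -0.26 and -0.36 in its further sets. Ammecr1 was the 1 gene called in opposite directions, with 8.76 and 7.72 at 0 h and 7.24 and 8.38 after LPS.

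Genes of eosinophils, basophils and mast cells, which a marrow preparation can hold beside neutrophils, had differences below 0. Of 9 matched markers 5 were measured and 2 were called lower, beside 0.626% of all measured genes; Epx, Siglecf and Prg3 did not reach 2-fold. Mcpt8, a basophil protease, had 9.01 and 7.40 at 0 h and 9.05 and 7.57 after LPS, 2.79-fold lower. Prg2, the eosinophil major basic protein, had 11.42, 10.32, 11.29 and 10.06, 2.34-fold lower. In both genes the knockout arrays lay below the wild-type arrays at either time.

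Epx, eosinophil peroxidase, had 8.43 and 6.99 at 0 h and 7.73 in wild type against a value below the floor after LPS, a difference of at least 0.93 downwards. Siglecf stood at -0.52 and Prg3 at -0.18, both with the knockout below the floor. Ccr3, Cpa3, Fcer1a and Ms4a2 were below the floor on both LPS arrays. The list's median was -0.93 after LPS and -1.10 at 0 h, beside -0.01 over all genes after LPS. The median stayed below 0 under each of 3 other scalings. The list's summed signal was 4380 (wild type) and 2058 (knockout) at 0 h and 3799 and 1613 after LPS. Ear3, an eosinophil-associated ribonuclease noticed after its value was seen, stood at -1.04. In pooled bulk RNA, fewer cells of a type and less RNA per cell cannot be told apart. The part of these cells in the other differences was not tested.

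Markers of other cells did not reach 2-fold in their brightest probe sets. A further set of H2-Aa, an MHC class II chain, had 8.70 and 7.52 after LPS (-1.18), against 0.25 in its brightest set, and further sets of H2-Ab1 gave -0.57 and -0.47. Monocyte and macrophage genes ran from -0.46 to 0.28 (9 measured), dendritic cell and MHC class II genes from -0.27 to 0.31 (5), and plasma cell genes from -0.16 to 0.44 (5). Erythroid, platelet, B, T and NK, progenitor and stromal lists had at most 3 measured genes each, none called. Among them Pf4, a platelet chemokine, stood at -0.81. Gata2, a factor of progenitors, basophils and mast cells, was at least 0.75 lower, with the knockout below the floor. Of 10 measured immunoglobulin kappa segments 3 were called, all higher, beside 0.615% of all genes, and the lowest was Igkv15-103 at -0.62: Igkv4-72 had 7.57, 9.22, 7.05 and 8.58 (1.53), Igkv4-68 stood at 1.45, and Igkv6-15 was at least 2.31-fold higher. Igkv8-30, the bright segment among them, stood at -0.30, and Jchain, the joining chain of plasma cells, at 0.44.

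Of the 40 measured genes nearest to Mir125a on chromosome 17, 20 on each side in the order of GRCm38.p6, 3 were called (7.5%, beside 1.24% of all measured genes) and the median difference was 0.09. Riok2, a kinase of ribosome maturation and the nearest measured gene on one side, had 9.79 and 8.25 at 0 h and 9.71 and 8.67 after LPS, 2.06-fold lower, with -0.45 and -0.15 in its further sets. Afdn, an adherens junction protein, and Agpat4 were higher (1.15 and 1.10). All 3 calls were noticed after their values were seen. On the other side Has1, a hyaluronan synthase, stood at -0.34 and Fpr2, a formyl peptide receptor of neutrophils, at 0.20 (15.01 and 15.22).

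By chromosome, 12 of 490 measured genes on chromosome 17 were called (2.45%), 15 of 563 on chromosome 4 (2.66%) and 13 of 685 on chromosome 7 (1.90%), beside 1.24% of all. Besides the Trim cluster, 3 other stretches held at least 3 called genes within 10 consecutive measured ones. On chromosome 17 these were Glo1, Dnah8 and Wdr4 (1.18), all higher. On chromosome 4 Dhrs3, a retinal reductase, was lower (-1.12), and Znf41-ps and Zfp991 were higher, at 1.01 (a lower bound) and 1.13. The immunoglobulin kappa segments on chromosome 6 were the last. The runs are stretches of called neighbours with uncalled genes between them, and no stretch was tested against chance. Some of these calls depended on the setting. Zfp991 gave -0.12 in a further set, and lost its call under quantile normalization (0.97) and in the mean over probe sets (0.12). With arrays scaled on the poly-A spike-in controls, the calls of Wdr4 (0.94), Znf41-ps (0.72) and Igkv6-15 (0.92) were lost.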

How the data were processed

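Per the submitters' processing notes, MAS5 (version not given in the sources used here) gave the authors' deposited log2 signals, with 1 value for each probe set on each array. Unlogged trimmed means were 500.003 to 500.004, so arrays had been scaled alike. MAS5 treats each array alone.

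Probe sets were named by the supplied platform annotation (34945 with 1 symbol, 932 with several, 9160 unlisted, 64 controls); 34741 matched GRCm38.p6 Entrez identifiers and 0 symbols changed. Each of 18193 genes took its probe set with the highest 4-array mean. Values under the 60th percentile were set to it. With 1 array a group no test was possible, and the number of arrays limits precision. Members and lists (659 symbols, 570 matched) were chosen with earlier results of these data known. Named were the 12 highest and lowest calls above the floor on both LPS arrays, 5 bounds each way, up to 6 genes a list (and every called one), 10 each way called at both times, neighbouring calls and opposite calls; uncharacterised symbols (3 among all calls) were passed over. Tnfaip3, Slfn5, Tcl1b3 and the genes so marked in the text were chosen after their values were seen. Differences were computed in Python 3.11.15. The calculation was checked on simulated arrays in which genes well above the floor were shifted in all their probe sets. That check does not cover dim genes or genes whose probe sets disagree. Alternatives changed scaling, floor, probe set choice and fold.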

Additional observations from a re-analysis of the deposited data

Results flagged for a closer look

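Ammecr1 was called in opposite directions at the different times: log2 signals of 8.76 in wild-type and 7.72 in knockout cells at 0 h, and 7.24 and 8.38 after LPS, differences of -1.04 and 1.14. The difference between the times was not tested, and the gene lost its call after quantile normalization (0.99); a 75th percentile floor and the mean over probe sets both gave 0.00.

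Probe sets that the annotation does not list under a gene were outside the gene counts. After LPS 67 of 1758 measured ones were 2-fold higher in the knockout (3.81%) and 11 lower (0.626%), beside 0.772% and 0.488% of probe sets with 1 gene symbol. At 0 h 1.40% were higher and 0.994% lower. In 55 of the 67 the wild-type LPS array was the lowest of the 4, and 40 were at least 2-fold lower in wild-type cells after LPS than at 0 h. By signal level, 3.89% and 6.95% of the 2 dimmest of 5 bins were higher, beside 1.37% and 1.05% of the named sets there.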

How the results depend on the processing

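No paired analysis was possible because each group is 1 array. Main counts were 57 higher, 58 lower and 29 called alike at both times. Higher and lower calls numbered 138 and 118 at a 50th percentile floor, 16 and 24 at a 75th, 2462 and 1898 with no floor, and 4 and 10 at 3-fold; 90 were higher in the mean over probe sets. Genes called alike at both times numbered 13 at the 75th percentile, 1023 with no floor and 118 at 1.5-fold. The largest list median in size was 1.23 with no floor, beside 0.93. Quantile normalization gave 47 higher and 76 lower (38.2% higher, beside 49.6%). Of the 115 calls 99 remained under quantile normalization, 111 under median scaling, 89 on the poly-A scale, 40 at the 75th percentile and 63 in the mean over probe sets, where Slc41a3 turned to 0.0688. Of 53 named called genes 14 kept the call in all 10 alternatives. With scaling, 18 list medians changed sign, from main values of at most 0.17 in size. Signal near background limits dim genes.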
